A study of Mus musculus with 24 samples.

Results

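The regions described here are stretches of liver chromatin with peaks of the histone mark H3K27ac in both sexes of both mouse strains. The peaks covered more bases in females than in males. The regions were chosen by peak width alone. The peaks of 4 deposited lists (B6 male, B6 female, CAST male and CAST female) were merged into union regions wherever they overlapped by 1 bp or more on the autosomes, which gave 117616 regions, and 47477 of these held a peak of all 4 lists. A shared region was kept when the female peaks covered at least 5 bases for every 4 covered by the male peaks, and at least 200 bp more, in B6 and again in CAST. That left 815 regions, 1.72% of the shared regions. Because the widths selected the regions, every difference in width between females and males is a description and has no test.

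The livers were taken from 8-week-old male and female mice of 2 inbred strains, C57BL/6J, called B6, and CAST/EiJ, called CAST. They were untreated and without any engineered allele. Each of the 4 groups had 5 livers and 1 input library, 24 samples in all, and the authors merged the livers of a group before calling peaks. Each list is therefore 1 pooled measurement, with no spread between animals, and the lists give no read depth. Groups follow the sample titles, the list names and the study's methods, although a strain field of the labels calls all females CAST and all males B6, and the peak names carry the code of a single library. Whole liver was used, so a difference in the mark within hepatocytes and a difference in the cells present cannot be told apart. Of 6 hepatocyte marker genes, 5 had a peak near a transcript start in every list, as did 6 of 7 endothelial markers and 3 of 5 bile duct markers. Stellate markers had 2 or 3 of 6, macrophage markers 0 or 1 of 6, and B cell, T cell and neutrophil markers none in any list, while 2 or 3 of the 3 brain genes looked up as genes inactive in liver did have a peak, so a peak near a start did not mark a cell type by itself.

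H3K27ac, acetylation of lysine 27 on histone H3, marks active promoters and enhancers. Width here is the number of bases over which a peak was called. Whether a greater width reflects a spread of the mark or the strength of the signal was not tested. In mouse liver many genes are expressed at different levels in males and females, and the sex pattern of pituitary growth hormone secretion, pulsatile in males and near continuous in females, is the main known signal behind this. It acts through the transcription factor STAT5, with the repressors CUX2, which is female-specific, and BCL6, which is more abundant in males, as well as the liver factors FOXA, HNF4A, HNF6 and C/EBP.

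The sequences shown here are bases that the peaks of both female lists covered and those of neither male list did, in members in introns of 5 genes known for higher expression in female liver. They were picked, after their sequences were seen, to show members with and without a STAT5 match. They were read from the NCBIM37 (mm9) genome, plus strand, and are up to 200 bases from the middle of the longest such stretch. Capitals mark matches, on either strand, to any of 6 short motifs: STAT5 (TTCNNNGAA), BCL6 (TTCCNAGAA, each match of which is also a STAT5 match), FOXA (TGTTTAC), HNF4A (CAAAGTCCA), HNF6 (ATTGAT) and C/EBP (TTGCNNAA), where N is any base. The Fmo1 stretch, chr1:164783404-164783603, held 2 STAT5 matches and overlapping C/EBP matches. The Fmo2 stretch, chr1:164809317-164809495, held a STAT5 match that was also a BCL6 match. The Tox stretch, chr4:6842908-6843107, held a C/EBP match. The Cux2 stretch, chr5:122477204-122477403, and the Slc22a26 stretch, chr19:7862977-7863176, held none, which says only that these letters are not in these windows.
Fmo1: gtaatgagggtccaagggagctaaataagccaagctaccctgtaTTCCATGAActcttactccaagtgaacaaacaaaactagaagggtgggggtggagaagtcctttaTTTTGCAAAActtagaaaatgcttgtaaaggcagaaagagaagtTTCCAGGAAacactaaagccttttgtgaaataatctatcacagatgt
Fmo2: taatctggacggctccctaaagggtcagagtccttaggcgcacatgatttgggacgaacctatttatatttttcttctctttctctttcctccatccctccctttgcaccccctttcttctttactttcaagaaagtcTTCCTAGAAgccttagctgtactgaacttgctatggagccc
Tox: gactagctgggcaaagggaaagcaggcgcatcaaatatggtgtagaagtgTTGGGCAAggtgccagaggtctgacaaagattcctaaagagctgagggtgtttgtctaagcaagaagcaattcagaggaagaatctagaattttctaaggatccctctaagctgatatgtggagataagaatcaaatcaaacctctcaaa
Cux2: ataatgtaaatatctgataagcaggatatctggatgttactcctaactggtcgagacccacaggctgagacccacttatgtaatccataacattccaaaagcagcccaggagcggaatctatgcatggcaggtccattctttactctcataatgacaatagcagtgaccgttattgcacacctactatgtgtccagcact
Slc22a26: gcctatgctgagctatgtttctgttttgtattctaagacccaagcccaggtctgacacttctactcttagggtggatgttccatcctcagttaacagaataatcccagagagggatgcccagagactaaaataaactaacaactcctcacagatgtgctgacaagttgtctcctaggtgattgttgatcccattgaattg

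In B6 alone, the width rule took 4782 regions, 10.1% of the shared regions, as wider in females, and in CAST it took 3954, or 8.33%. The opposite rule, with the sexes exchanged, took more regions: 8224 in B6 (17.3%), 9582 in CAST (20.2%) and 2514 in both strains (5.3%). The male lists also covered more of the autosomes as a whole, 69.3 Mb against 66 Mb in B6 and 71.7 Mb against 64.2 Mb in CAST, and the part that this plays in the counts was not tested. Of the 4782 regions wider in females in B6, 17% were also wider in females in CAST (815), whereas 26.8% were wider in males there (1281). Of the 3954 regions wider in females in CAST, 20.6% were wider in females in B6 and 21.2% were wider in males (837). Of all shared regions, 8.33% and 10.1% were wider in females in CAST and in B6, and 20.2% and 17.3% were wider in males. Both the same and the opposite direction were thus above their shares over all shared regions, the same direction by more. These shares use the widths that chose the members, and neither was tested. Of the 8224 regions wider in males in B6, 30.6% were wider in males in CAST and 10.2% were wider in females there.

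**Figure D1:**
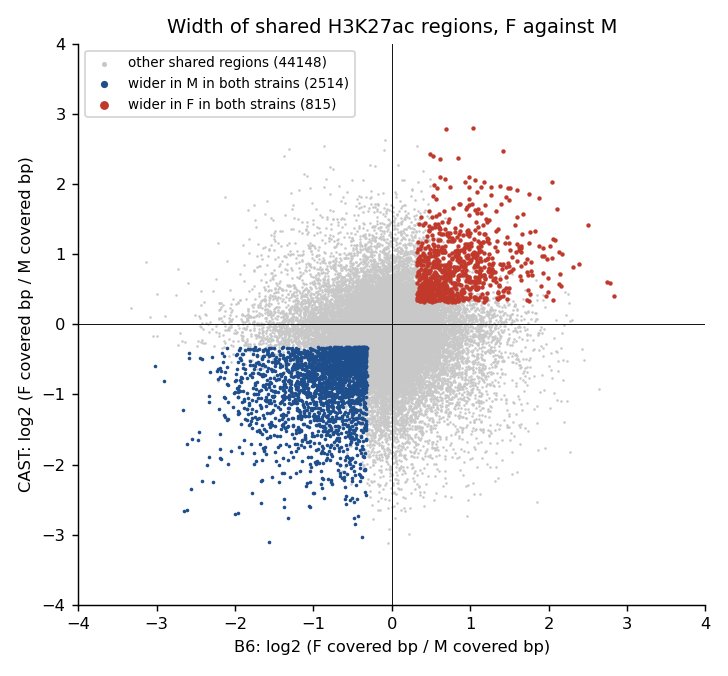
Each point is 1 of the 47477 shared regions, placed by the log2 ratio of bases covered by the female and the male list in B6 (horizontal) and in CAST (vertical). The 815 regions wider in females in both strains (red) fill the upper right by construction, and the 2514 wider in males in both strains (blue) the lower left.

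In these 815 regions the male peaks covered a median of 621 bp in B6 and 624 bp in CAST, and the female peaks 1072 bp and 1034 bp. The lowest and highest values were 229 and 2135 bp for B6 males, 439 and 3422 bp for B6 females, 215 and 2270 bp for CAST males, and 424 and 3084 bp for CAST females. The median female to male ratio was 1.66 in B6 (highest 7.16) and 1.64 in CAST (highest 6.95), beside 0.972 and 0.956 over all shared regions, and the median difference was 407 bp and 390 bp. Most members lay well below the extremes: 88 of 815 had a ratio of at least 2 in both strains, and 5 had a ratio of at least 3 in both. Many also lay close to the rule's edge, with a ratio under 1.35 in at least 1 strain for 225 members (27.6%) and a difference under 250 bp for 172 (21.1%).

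At the edge of the ratio, a region overlapping Sept5, chr16:18629340-18630512, was kept with 1115 bp in B6 females against 892 bp in B6 males, and a region at Map4k5, chr12:70913753-70916263, was left out with 2147 bp against 1718 bp (1.2497 times). At the edge of the difference, a region at Syn3, chr10:85712005-85713037, was kept with 756 bp in CAST females against 556 bp in CAST males, and a region at Parp14, chr16:35869076-35869810, was left out with 525 bp against 326 bp. Regions on the 2 sides of the rule were thus nearly alike.

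The added female bases were usually on a single side. At least 100 bp of female-only coverage lay on 1 flank of the male peaks in 69.8% of members in B6 (Wilson 95% interval 66.6 to 72.9; intervals cover counting error only) and 72.5% in CAST, and on both flanks in 27% and 21.6%. In 10.3% and 15.5% at least 100 bp of female-only coverage lay between male peaks. Of 427 members with the extra bases on 1 flank in each strain, 314 had them on the same flank in both (73.5%, 69.2 to 77.5). The bases covered in both female lists and in neither male list had a median length of 209 bp, up to 1438 bp, and were at least 100 bp in 579 members (71%), so in the remaining 236 members the added female bases of the strains coincided little.

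**Figure D2:**
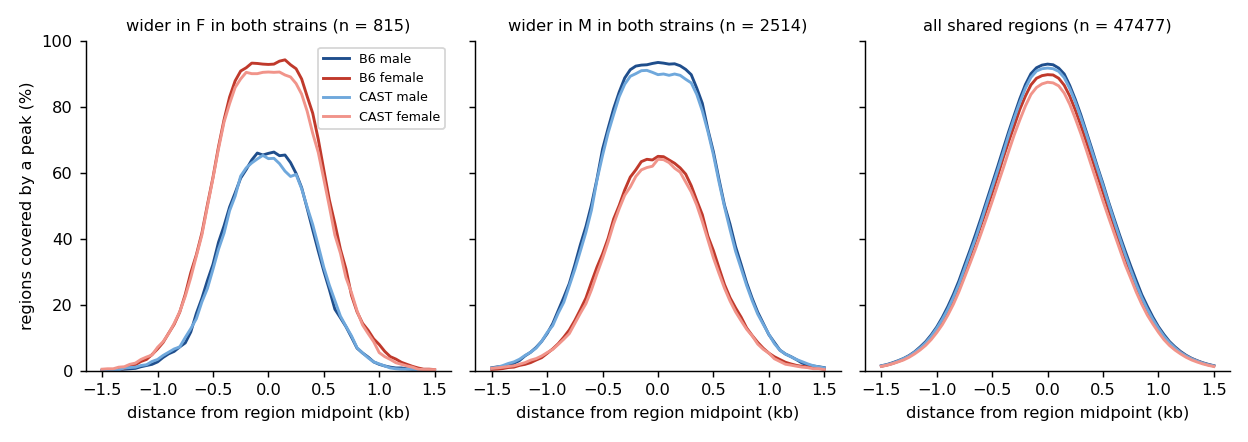
Share of regions (vertical, percent) covered by a peak of each list at each distance from the midpoint of the union region (horizontal, kb), for the 815 regions wider in females, the 2514 wider in males and all 47477 shared regions. At the midpoint the female peaks covered 93% (B6) and 90.7% (CAST) of the female-wider regions and the male peaks 66% and 64.4%.

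Greater width did not always come with a higher peak. The fold enrichment over background at the strongest peak was higher in females in 63.4% of members in B6 (60.1 to 66.7) and 52.5% in CAST (49.1 to 55.9), beside 52.2% and 34.2% of all shared regions. It was higher in females in both strains in 294 members (36.1%) and higher in males in both in 164 (20.1%), beside 18.4% and 32% of all shared regions. Fold enrichment comes from the same lists as the widths, so these shares are descriptions too. The median fold enrichment of the members was 2.58 against 2.75 in B6 males and females, and 2.68 against 2.77 in CAST. The members were weak to middling peaks: their median percentile by the authors' p-value was between 46.3 and 54 in the 4 lists, and 12 of them (1.47%) were in the top 10% of all 4 lists, beside 13.7% of all shared regions. A single peak in every list was found in 58.8% of members and in 72.6% of all shared regions.

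Position was not used by the rule. Of the members, 648 (79.5%, 76.6 to 82.1) lay over 2.5 kb from any annotated transcript start, beside 62.8% of all shared regions and 79% of the regions wider in males. The distance to genes therefore set female-wider regions apart from shared regions in general, by more than the counting interval, but not from the regions wider in males. A start lay inside 10.4% of members and 24.6% of all shared regions. Introns held 35.1% of the members, all of it away from starts, beside 28.2% of all shared regions and 36.8% of the regions wider in males. Distal regions between genes made up 35.7% of members, beside 27.5% and 32.6%. The share of shared regions that were members ranged from 1.23% on chromosome 8 to 2.24% on chromosome 6.

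The 12 members with the largest ratio in the strain where it was smaller had ratios of 2.68 to 4.33 in B6 and 2.89 to 5.54 in CAST. The first, chr8:91967720-91969207, was between genes, with 348 bp in males against 1441 bp in females of B6, and 259 bp against 1055 bp in CAST. It moved from percentile 14 of the B6 male list to percentile 77.3 of the B6 female list, and from 10.9 to 71.9 in CAST, so both male lists held it as a weak peak. The second, chr7:72611045-72612323, lay 94.9 kb from the start of Tjp1, a tight junction scaffold gene, with 240, 886, 365 and 1268 bp in the order B6 male, B6 female, CAST male, CAST female, which is kept below. The third was in an intron of Cwc27, a spliceosome cyclophilin gene (chr13:105440008-105441025; 263, 882, 246 and 896 bp).

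Others of the 12 lay at genes of varied function. A region over exon sequence of Arhgef12, which encodes a guanine nucleotide exchange factor, measured 230, 995, 286 and 891 bp (chr9:42808468-42809841). A region 0.748 kb from a start of Ahcyl1, which encodes a regulator of inositol trisphosphate receptors, measured 244, 739, 295 and 854 bp (chr3:107500226-107501182). A region in Wisp1, a secreted CCN family protein gene, measured 371, 1034, 229 and 880 bp (chr15:66742396-66743433). In all 3 the widest male peak set was narrower than the narrowest female set.

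The same held for the remaining members of the 12. The region 5.93 kb from Brp44l, a gene for a subunit of the mitochondrial pyruvate carrier, had 346, 948, 248 and 871 bp (chr17:8468637-8469840). The region 15.4 kb from Fam46a, a nucleotidyltransferase gene, had 449, 1204, 216 and 1196 bp (chr9:85236164-85237617). Regions 33.7 kb from Fcamr, an Fc receptor gene for IgA and IgM (chr1:132662877-132663791), 74 kb from AC134903.1 (chr5:76230683-76231892) and in an intron of Gm12068 (chr11:24469978-24471125) had 215 to 333 bp in males and 643 to 1148 bp in females. The last of the 12, in Cux2, is described next. Fold enrichment, from the same lists as the widths that picked them, was higher in females in both strains in 9 of the 12, beside 36.1% of all members and 18.4% of all shared regions.

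A list of 39 genes known for higher expression in female liver was then set beside the regions. Several of these genes were named by the study of these mice, so the list is not independent evidence of direction. The list does not separate strains: a bias in expression need not be present in both, which applies to Tox and Trim24 among others, and expression was not analysed here. Counting gene bodies and 10 kb on either side, 23 of the 39 genes had a shared region. Of the 23, 14 had a member (60.9%) and 3 had a region wider in males (13%). Among all protein-coding genes with a shared region these shares were 4.16% and 13.4%. In all, 21 of 137 shared regions were members (15.3%, 10.2 to 22.3), beside 581 of 37342 at all protein-coding genes (1.56%). Regions wider in males were 4 of the 137 (2.92%, 1.14 to 7.27), an interval that includes the 5.05% at all protein-coding genes. Female to male ratios of the 21 members had a median of 1.8 in B6 and 1.72 in CAST, beside 1.66 and 1.64 for all members.

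**Figure D3:**
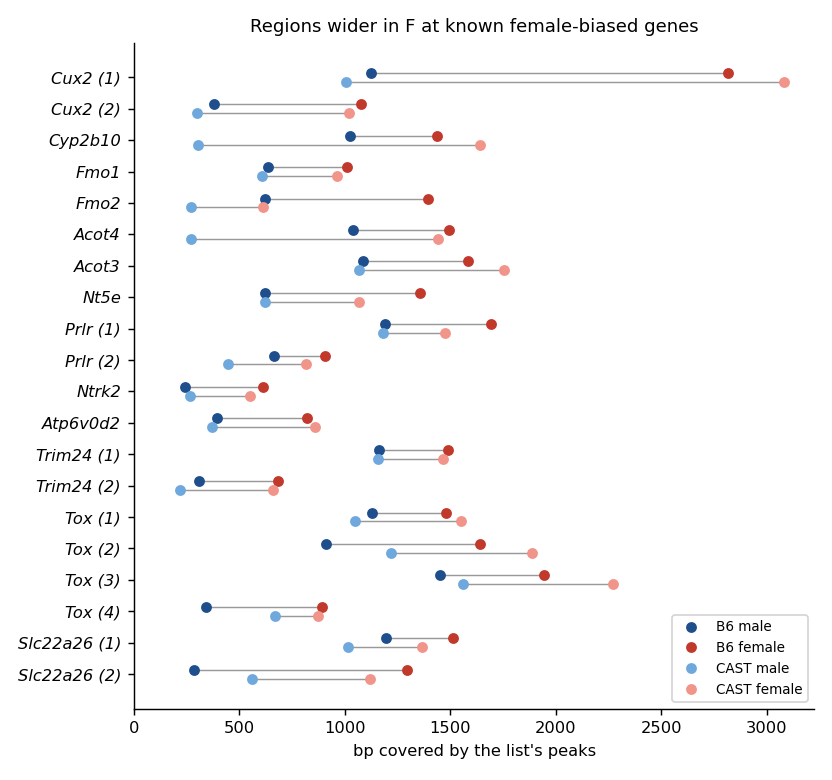
Bases covered (horizontal, bp) by the B6 male, B6 female, CAST male and CAST female peaks at 20 of the 21 regions wider in females at genes known for higher expression in female liver, each row a region and numbers in brackets the regions of 1 gene in order of position. The first Cux2 region had the widest female coverage, 2817 bp in B6 and 3084 bp in CAST.

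Cux2 encodes the CUT homeobox repressor known for its expression in female liver, and it held 2 members among 7 shared regions, both intronic. At chr5:122467155-122470238 the peaks covered 1124, 2817, 1005 and 3084 bp, with a fold enrichment of 3.2, 3.17, 2.18 and 3.1, which was higher in females in CAST but not in B6. The CAST female list held a single peak there where the CAST male list had 3, while in B6 the lists of both sexes had the same number of peaks. At chr5:122476576-122477651 the values were 380, 1076, 300 and 1023 bp, and the fold enrichment was 3.93, 5, 2.61 and 4.58. Both regions were wider in either female list than in either male list, and no region of the gene was wider in males in both strains.

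Tox and Trim24 encode chromatin-associated regulators, an HMG box protein and a bromodomain protein. The study of these mice reported female-biased expression of both genes in B6 liver but not in CAST liver. Tox had 4 members among 16 shared regions, all intronic, and 1 region wider in males. From 6835429 to 6886112 on chromosome 4, they covered 1132, 911, 1453 and 344 bp in B6 males and 1479, 1640, 1947 and 892 bp in B6 females. In CAST they covered 1049, 1222, 1559 and 671 bp in males and 1550, 1886, 2272 and 876 bp in females. The fold enrichment of the first of the 4 was lower in females in both strains (3.42 and 3.05 in B6 males and females, 3.52 and 2.85 in CAST), so it was wider without being higher. That of the second was also lower in both (2.08 and 1.99, 2.05 and 1.82). The fourth was higher in females in both (2.53 and 2.73, 2.98 and 3.09), and the third was higher in B6 females only.

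At Trim24, the region over the start (chr6:37820790-37822322) measured 1161, 1490, 1159 and 1464 bp, a ratio of 1.28 in B6 and 1.26 in CAST, near the rule's edge. It was among the strongest members, at percentiles of 96.9 to 97.7 in the 4 lists, and its fold enrichment was higher in males in both strains (7.02 and 5.93 in B6, 7.57 and 5.81 in CAST). An intronic region, chr6:37843409-37844106, measured 311, 684, 219 and 661 bp.

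Members at enzyme and transporter genes of the list come next. Fmo1 and Fmo2, adjacent genes of flavin-containing monooxygenases that oxidize drugs and other amines, had 1 member each. The Fmo1 intronic region (chr1:164783302-164784312) measured 636, 1009, 606 and 966 bp. The Fmo2 intronic region (chr1:164808858-164810254) measured 621, 1397, 271 and 611 bp, so that its CAST female coverage was below its B6 male coverage and the sexes separated within each strain but not across strains.

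Cyp2b10, a cytochrome P450 gene inducible by drugs, had an intronic member (chr7:26686608-26688301) with 1027, 1438, 304 and 1643 bp. Acot4 and Acot3, neighbouring acyl-CoA thioesterase genes, shared a pair of members. The region over Acot4 exon sequence, chr12:85383539-85385044, measured 1041, 1495, 272 and 1443 bp, and the region over the Acot3 start, chr12:85392811-85394566, measured 1088, 1584, 1066 and 1756 bp. In both the Cyp2b10 and the Acot4 region the ratio was above 5 in CAST (5.4 and 5.31) and far smaller in B6 (1.4 and 1.44), with the lowest coverage in the CAST males.

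Slc22a26, an organic anion transporter gene, had 2 members within 10 kb, and 1 more 34.6 kb from its start. The intronic region, chr19:7862920-7864254, measured 288, 1294, 560 and 1118 bp. The region 26.4 kb from the start, chr19:7849166-7850703, measured 1194, 1516, 1014 and 1366 bp, a modest widening, while its fold enrichment was 5.42 and 9.14 in B6 males and females and 5.64 and 11.2 in CAST. Here the female peaks differed more in height than in width.

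Receptor and surface protein genes followed. Prlr, the prolactin receptor gene, had 27 shared regions, of which 2 were members and 2 were wider in males. Its member over a start, chr15:10153719-10155499, measured 1192, 1694, 1180 and 1478 bp, and the next, chr15:10155861-10156768, measured 664, 908, 446 and 816 bp. Nt5e, which encodes the surface nucleotidase CD73, had a member 1.41 kb from a start (chr9:88223854-88225267; 624, 1357, 621 and 1068 bp). Ntrk2, the gene of the BDNF receptor, had a member over a start (chr13:58907944-58908558; 242, 615, 267 and 552 bp), as did Atp6v0d2, a proton pump subunit gene (chr4:19849327-19850187; 396, 822, 370 and 859 bp). All but the first Prlr region had a female list at least 1.3 times the male list in each strain.

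Over the 21 members at these genes, the fold enrichment was higher in females in both strains in 9 (36.1% of all members and 18.4% of all shared regions) and higher in males in both in 6 (20.1% and 32%). The other 9 genes of the list with a shared region but no member were Cyp2c39, Cyp17a1, Cyp39a1, Cyp4a14, Sult3a1, Slco1a4, Abcc4, Cd36 and Lepr. The 16 genes with no shared region included Cyp2b9, Cyp2b13, Cyp3a41a, Cyp3a44, Cyp2a4, Sult2a1 and Sult2a2, genes of families with close paralogs. They also included A1bg, Hao2 and Hamp2. A shared region needs a peak in both male lists, so a gene with peaks in females alone has none by definition. The use of uniquely mapped reads may matter for the genes with close paralogs. What part either plays in the absence was not tested.

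**Figure D4:**
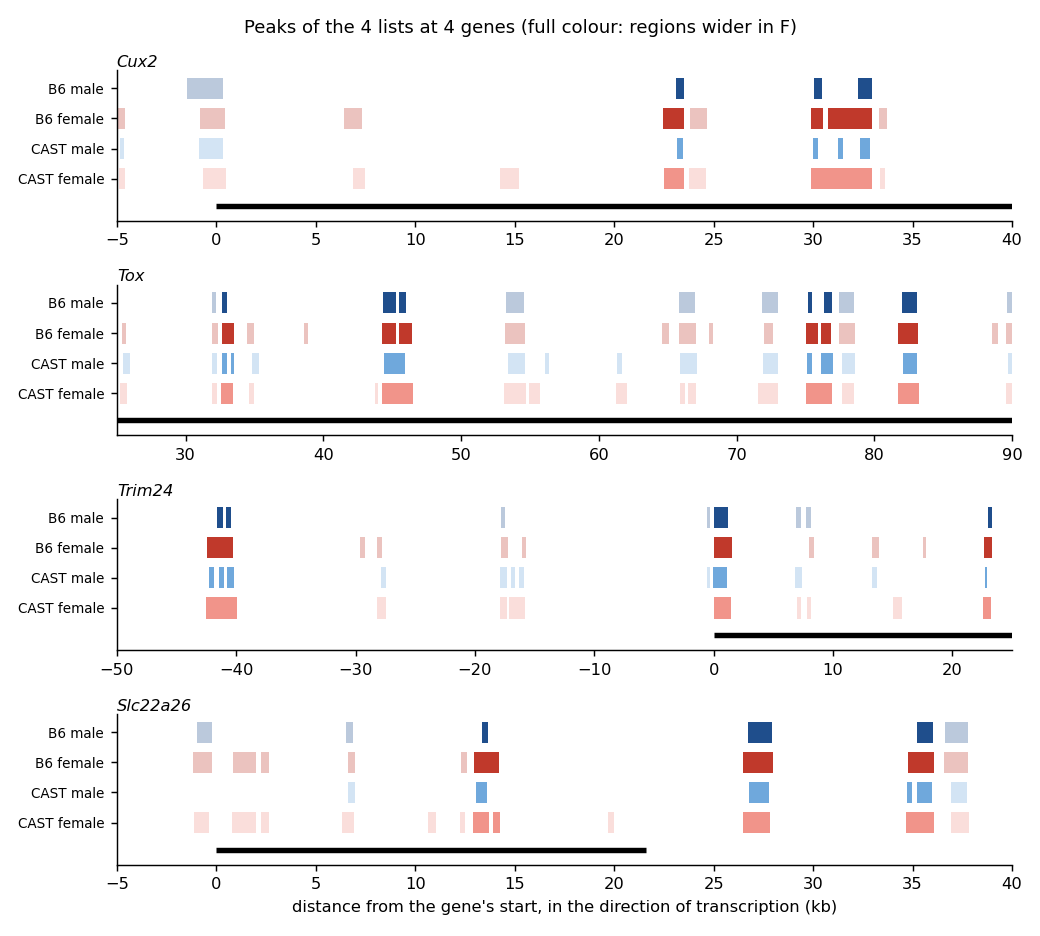
Peaks of the 4 lists (rows) by distance from the start of Cux2, Tox, Trim24 and Slc22a26, in the direction of transcription (horizontal, kb), with the gene body as a black line. Full colour marks regions wider in females in both strains, and pale bars are other peaks.

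The other gene lists had few members. Of 28 genes known for higher expression in male liver, 23 had a shared region, 4 had a member (17.4%) and 10 had a region wider in males (43.5%), beside 4.16% and 13.4% of all protein-coding genes with a shared region. Of their 104 shared regions, 4 were members (3.85%, 1.51 to 9.47) and 13 were wider in males (12.5%, 7.45 to 20.2), beside 1.56% and 5.05% at all protein-coding genes. The 4 members included the start of Bcl6, the male-biased repressor gene (chr16:23988649-23989488), at 317, 576, 216 and 711 bp. They also included intronic regions of Cyp7b1, an oxysterol hydroxylase gene (chr3:18135684-18136301; 403, 618, 225 and 519 bp), Nudt7, a peroxisomal CoA hydrolase gene (chr8:116666867-116668742; 759, 1107, 823 and 1686 bp), and Egfr, the epidermal growth factor receptor gene (chr11:16694322-16695045; 246, 562, 400 and 626 bp). Nudt7 and Egfr also had regions wider in males, 1 and 2 of them.

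Growth hormone signalling genes had 3 members among 108 shared regions (2.78%, 0.949 to 7.85), and 4 regions wider in males, 3 at Ghr, the growth hormone receptor gene, and 1 at Ptpn1 (3.7%, beside 5.05% at all protein-coding genes). Stat3, a signal transducer of the STAT family, had a member over a start (chr11:100769227-100770561; 594, 1310, 338 and 731 bp). Socs2, a feedback inhibitor of growth hormone signalling, had one over exon sequence (chr10:94848175-94849049; 417, 794, 310 and 555 bp), as did Ptpn1, a tyrosine phosphatase gene (chr2:167783306-167784378; 566, 1069, 252 and 529 bp). All 3 were wider in B6 than in CAST in either sex.

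Among 147 regions at liver transcription factor genes the only member was in an intron of Nr1i2, the gene of the xenobiotic receptor PXR (chr16:38281597-38283720; 1240, 1720, 1140 and 2088 bp), or 0.68% (0.12 to 3.75), and 5 regions were wider in males (3.4%, beside 5.05% at all protein-coding genes). Among 180 regions at lipid metabolism genes the only member was over a start of Elovl5, a fatty acid elongase gene (chr9:77765219-77767139; 1191, 1890, 1061 and 1513 bp), or 0.556% (0.0981 to 3.08), and 4 were wider in males (2.22%, beside 5.05%). For these 3 lists, and for the genes known for higher expression in male liver, the interval includes the 1.56% of all protein-coding genes. Of the cell type markers, Alb (chr5:90885540-90886381; 515, 817, 503 and 805 bp) and the endothelial gene Kdr (chr5:76329345-76330397; 291, 591, 282 and 926 bp) had 1 member each, and the other marker lists had none. Those members were 3.45% of the 29 shared regions at hepatocyte markers (0.611 to 17.2) and 2.63% of the 38 at endothelial markers (0.466 to 13.5). Both intervals include the 1.56%. The other marker lists had only 1 to 12 shared regions each, too few to show an absence. Regions wider in males were 3 of the 29 and 3 of the 38 (10.3%, 3.58 to 26.4, and 7.89%, 2.72 to 20.8), intervals that include the 5.05% at all protein-coding genes.

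**Figure D5:**
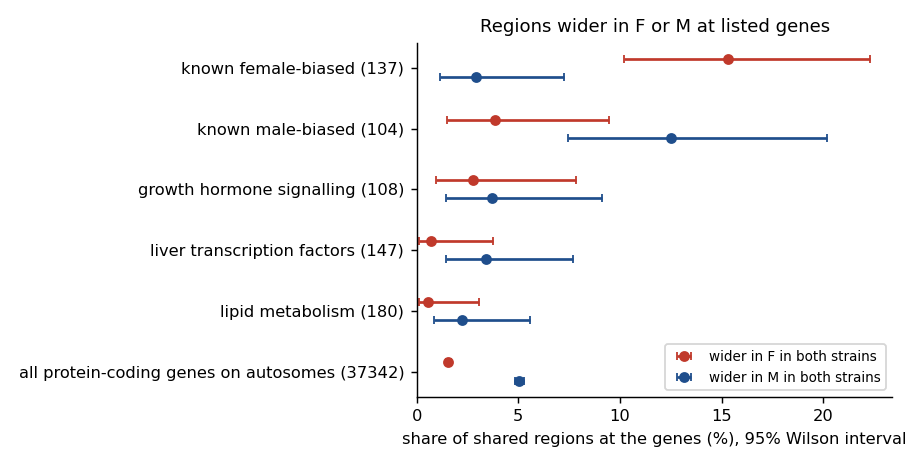
Share of shared regions at the genes of each list (horizontal, percent, with 95% Wilson intervals) that were wider in females (red) or in males (blue) in both strains, with the number of shared regions in brackets. Female-wider regions made up 15.3% at genes known for higher expression in female liver and 1.56% at all protein-coding genes.

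Members sometimes lay close together. Another member was found within 50 kb for 117 of the 815 (14.4%, 12.1 to 16.9), beside 8.09% of all shared regions and 7.48% of the regions wider in males that had a member that near. Regions wider in males had 27.5% with another of their own kind within 50 kb, of 2514 regions. A region wider in males lay within 50 kb of 21.5% of members, beside 25.1% of all shared regions. Regions called in the female lists of both strains and in neither male list lay within 50 kb of 16.8% of members (14.4 to 19.5) and 13.5% of all shared regions. The 117 formed 50 chains, of which 5 follow, the 3 with over 3 members and, of those tied at 3 members, the 2 with the largest summed female to male difference in bp. None of these 5 had a male-wider region within its span.

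The longest chain had 6 members over 173 kb between genes, chr8:91795752-91969207, 84.3 to 256 kb from Gm5356, the nearest coding gene. It ended in the first of the 12 members described above, the one with the largest ratio in the strain where it was smaller. Its other members covered 577, 933, 623, 1471 and 508 bp in B6 males and 1588, 1351, 1119, 1857 and 1149 bp in B6 females. In CAST they covered 1037, 747, 318, 1375 and 584 bp in males and 1820, 1474, 1645, 1899 and 952 bp in females. Members were thus 6 of the 12 shared regions of the span.

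The second chain was that of Tox. The third, chr6:51562022-51653084, had 4 members among 9 shared regions, 67.5 to 157 kb from Snx10, a sorting nexin gene. They covered 942, 253, 889 and 494 bp in B6 males and 1302, 1073, 1421 and 1264 bp in B6 females. In CAST males they covered 1051, 340, 875 and 946 bp and in CAST females 1443, 787, 1299 and 1305 bp.

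The remaining 2 of the 5 were near each other on chromosome 6. The chain at chr6:37567104-37631182 had 3 members, the only shared regions in its span, 77.4 to 140 kb from the start of Akr1d1, the gene of a steroid and bile acid reductase. They covered 1262, 884 and 842 bp in B6 males, 2262, 1807 and 1529 bp in B6 females, 1772, 266 and 872 bp in CAST males and 2343, 1848 and 1117 bp in CAST females. The middle member had the largest ratio of all in CAST, 6.95. The chain at chr6:37778261-37844106 held the 2 Trim24 members and a region 40 kb from the Trim24 start, with 897, 2180, 1450 and 2597 bp. There the male lists had separate peaks where each female list had a single broad one.

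Outside the rule for naming, and picked after its values were seen, Bmper held the most members of any gene, 5 of its 8 shared regions, with none wider in males. It encodes a secreted protein that binds bone morphogenetic proteins. Its widest member in B6 females, chr9:23240173-23242303, measured 1299, 2131, 888 and 1449 bp, and the member over its start, chr9:23026703-23028532, measured 1115, 1471, 1331 and 1830 bp.

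Members away from starts had a slightly lower median GC content than all distal shared regions and fewer windows rich in CG pairs, as did the regions wider in males. In windows of 300 bp at the midpoint of each region, median GC content was 46.3% in members, 47% in regions wider in males and 49% in all shared regions. Restricted to regions over 2.5 kb from a start it was 45.7% in members, 46.3% in regions wider in males and 47% in all. Windows with 10 or more CG pairs made up 8.34% of members (6.63 to 10.4), 9.19% of regions wider in males and 24.1% of all shared regions. Away from starts these shares were 3.24% (2.13 to 4.9), 3.67% and 5.88%.

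Motif matches were about as common in members as elsewhere. The STAT5 letters were in the window of 77 members (9.45%, 7.63 to 11.7), 8.89% of all shared regions and 10.5% of male-wider regions. For C/EBP the shares were 15.3% of members (13 to 18) and 12.9% of all shared regions, for HNF6 9.57% and 8.61%, and for FOXA 5.89% and 4.9%. BCL6 was matched in 2.33% and 2.2% and HNF4A in 0.982% and 1.11%. Of these 6, only the C/EBP share of all shared regions lay outside the interval of the members, and among regions over 2.5 kb from a start it did not (15.7% of members, 13.1 to 18.7, and 14.8% of all).

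Within the members, the bases covered in both female lists and no male list (174 kb in 743 regions, 46% GC) were set beside those covered in all 4 lists (374 kb in 766 regions, 48.6% GC). STAT5 matches occurred 0.362 and 0.318 times per kb (63 and 119 matches), C/EBP 0.506 and 0.443, and HNF6 0.431 and 0.27. FOXA went the other way, with 0.144 and 0.187 per kb (25 and 70 matches). BCL6 (0.0747 and 0.0721) and HNF4A (0.023 and 0.0214) were nearly equal. In the regions wider in males, the corresponding male-only bases had 0.53 HNF6 matches per kb against 0.335 in the bases of all 4 lists, so the higher HNF6 density at the added bases was seen for either sex, along with a lower GC content. C/EBP was also denser in the male-only bases (0.524 and 0.434 per kb), whereas STAT5 was less dense there (0.292 and 0.338, from 168 and 413 matches). These densities have no interval, so a difference between the sexes in STAT5 density was not tested.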

How the data were processed

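The authors mapped uniquely aligned reads with Bowtie2, of B6 mice to mm9 and of CAST mice to a CAST genome whose coordinates were then converted to mm9, merged the 5 livers of a group and called peaks with MACS2 against input. In each of the 4 lists the authors deposited, per peak, a score (10 times the −log10 of the q-value, rounded down), a fold enrichment (a ratio to background), the −log10 of the p-value and a summit position, with no counts per liver. The lists therefore give no read depth, which was not used here, and no replicate spread.

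Peaks on the 19 autosomes were merged and regions chosen by covered bp as described, in Python 3.11.15 with pandas 2.3.3 and NumPy 2.4.6, and the code was tested on simulated peaks. Percentiles rank a peak by p-value within its list. Annotation was GENCODE vM1 on NCBIM37 (mm9), with coordinates counted from 1. Intervals are 95% Wilson intervals (SciPy 1.17.1) and cover counting error only. No hypothesis test was made, because the widths chose the regions.

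The regions, gene lists and motifs were chosen with earlier results of these data known. Regions named in the text were the 12 with the largest ratio in the strain where it was smaller, the 5 chains (members at most 50 kb apart) with the most members (ties by summed female minus male bp), members in or within 10 kb of listed genes (up to 2 per gene, beyond that as part of a chain) and the regions at the thresholds. A region was given the gene whose body it overlapped, otherwise that with the nearest transcript start. A region at a listed gene is counted but not reported here by itself.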

Additional observations from a re-analysis of the deposited data

Results flagged for a closer look

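The X chromosome was outside the rule. On it, 33 of 789 shared regions were wider in females in both strains by the same limits (4.18%, 2.99 to 5.82), beside 1.72% on the autosomes, and 23 were wider in males (2.92%, 1.95 to 4.34), beside 5.3%. It drew attention because the deposited lists hold these peaks and no comparison above uses them. Among the 33, a region over a start of Msn, the gene of the membrane linker moesin (chrX:93291100-93292752), measured 713 bp against 1216 bp in B6 males and females, and 1229 bp against 1653 bp in CAST.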

How the results depend on the processing

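The selection was repeated under 6 alternatives and, chosen after seeing the data, with each ratio divided by its strain's median. Under the stricter rule (1.5 times and 500 bp) the female-wider count was 76 and the male-wider count 373, the share with another within 50 kb was 2.63% (2 of 76), and the share at known female-biased genes was 2.92% (4 of 137), beside 0.16% of all shared regions; fewer regions pass by construction. Under the other selections the female-wider count was between 605 (only peaks with −log10 q of at least 5) and 924 (median-scaled ratio), and the male-wider count was between 1908 and 3211. Of the 815 regions, 502 to 784 overlapped a selected one, and all 815 did under the median-scaled ratio. That scaling keeps every member by construction, because the median ratio of each strain was below 1. The distal share was 82.6% with protein-coding starts and 85% with a 1 kb limit, and the share with a neighbour was 7.85% within 20 kb and 23.3% within 100 kb, as the limits imply. The share at known female-biased genes was 12.7% to 16.1% under the other selections. Repeating this share, under the stricter rule too, was not planned in advance. The share of windows with the HNF4A motif was 0.491% with windows centred on bases covered in both female lists, and the cause was not tested. No paired analysis was possible because each list pools the livers of a group.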
